A study of Mus musculus with 4 samples.

Results

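The genes described here are Setd8 and 8 genes that write, remove or depend on methylation of lysine 20 of histone H4 (H4K20) or that belong to the machinery that degrades the Setd8 protein. They are Suv420h1, Suv420h2, Phf8, Dtl, Ddb1, Cul4a, Cul4b and Skp2. They were taken by name from the authors' deposited expression table, and all 9 were found among its 23234 genes. Levels are in FPKM, which counts sequenced fragments relative to transcript length and library size, so they can be compared between genes. All 9 reached 1 FPKM in at least 1 library, as did 9612 genes in all, which are called measured genes below.

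The cells were mouse extensively self-renewing erythroblasts (ESREs), immature red cell precursors derived from the early fetus and expanded in culture. All groups carried a short hairpin RNA (shRNA). The proliferating control held a non-targeting shRNA, the proliferating knockdown an shRNA against Setd8, and the maturing control the non-targeting shRNA with 6 h in maturation medium before RNA was collected. The labels also name a group of Setd8 knockdown cells placed in maturation medium, which was not analysed here. Each group was 1 sample, and the labels do not say whether it was pooled from several cultures or grown from 1 clone. A difference therefore has no replicate check, and every call below is that of the authors' deposited table, where a gene was marked at an adjusted p (q) of at most 0.05.

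Setd8, also known as Kmt5a or PR-Set7, places a single methyl group on H4K20. Suv420h1 and Suv420h2 (Kmt5b and Kmt5c) extend this mark to the di- and trimethylated forms, and the demethylase Phf8 removes the single methyl group. The Setd8 protein is made and destroyed with the cell cycle. The ubiquitin ligase built from Cul4a or Cul4b, the adaptor Ddb1 and the substrate receptor Dtl (also called Cdt2) marks it for degradation in S phase when it meets the sliding clamp Pcna on chromatin, and a ligase with the F-box protein Skp2 also acts on it. These steps act on the protein, whereas the values here are of RNA.

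Facts of the 3 libraries that touch all results are as follows. Relative depth, read from what a single fragment is worth among very low genes, was 1.44 times that of the proliferating control for the knockdown and 1.55 times for the maturing control, and the absolute depth is unknown. All 10 listed erythroid markers were measured, with a summed level of 1833 FPKM in proliferating control, 681 FPKM in knockdown and 2969 FPKM in maturing control cells, where globins make up most of the sum. The 10 mast cell and basophil markers summed to 71.0, 501.5 and 38.1 FPKM in the same order. None of them was listed at 0, and 8 of the 10 were called higher in the knockdown in the authors' deposited table. Of all tested genes 9.05% were called there in either direction and 3.24% lower. In maturation 4 of the 10 were called lower, Tpsab1, Cpa3, Ms4a2 and Il1rl1, against 1.75% of all tested genes called. Of the erythroid markers 3 of 10 were called lower in the knockdown in that table, Alas2 and the alpha and beta globin entries. In maturation 1 of 10, Slc4a1, was called higher. The 6 megakaryocyte markers summed to 34.1, 59.0 and 13.9 FPKM in proliferating control, knockdown and maturing control cells. Of the 5 tested, 3, Pf4, Itga2b and Gp9, were called higher in the knockdown in the authors' deposited table. In maturation 1 of 4 tested, Gp5, was called lower. Of the 6 granulocyte and monocyte markers, 0 were measured, and Itgam, at 0.124 FPKM in the knockdown and listed at 0 in the proliferating control, was called higher in that table. Elane and Lyz2 were listed at 0 in every library. The sum of the 5 lymphocyte markers was at most 2.32 FPKM, nearly all of it Ptprcap, which was called lower in the knockdown in the authors' deposited table, at 2.29 and 0.150 FPKM with a q of 3.5e-08. The sum of 6 stromal, endothelial and liver markers was at most 0.0256 FPKM. The part of the mast cell and erythroid shifts in the values below was not tested. In RNA from a whole culture, fewer cells of a type and less RNA per cell cannot be told apart.

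Setd8, the targeted gene, lies on chromosome 5 from 124889938 to 124912316 (mm9, as all positions of genes here). It measured 25.1 FPKM in proliferating control cells, 9.28 FPKM in Setd8 knockdown cells and 25.9 FPKM in maturing control cells. The knockdown library was low and the 2 control libraries were alike, at 37.0% and 103% of the proliferating control. In the authors' deposited table Setd8 had a log2 ratio of -1.43 for the knockdown, with a 95% interval from -2.26 to -0.60 and a q of 0.0122. This interval comes from the standard error of the authors' model, 0.42 for this value. It covers 20.8% to 65.8% of the control level. With 1 library a group it holds no measured spread between cultures, so it does not bound the remaining share of Setd8 RNA. The call matches the label of the library. Of 9612 measured genes, 1.52% had a lower log2 ratio of FPKM + 1 than Setd8 in this comparison. Among the 9 genes Setd8 was the only one called, against 9.05% of the 11665 genes tested in the knockdown comparison, and 3.24% for calls of lower genes. For maturation the authors' deposited table gave it a log2 ratio of 0.05, with an interval from -0.74 to 0.84, and did not call it.

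**Figure D1:**
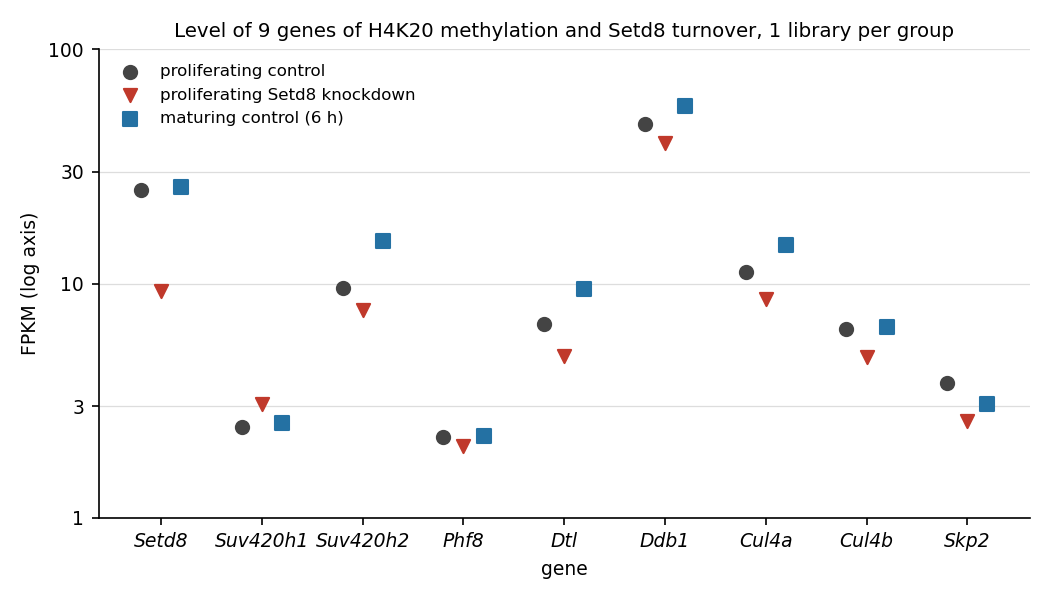
FPKM on a log axis for the 9 genes in 3 libraries, each point 1 library. Setd8 in the knockdown (9.28 FPKM) lies well below both control libraries (25.1 and 25.9 FPKM), while the other 8 genes lie between 2.03 and 57.5 FPKM.

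By level the genes formed the same broad order in the 3 libraries, from Ddb1 at the top to Phf8 at the bottom. In the proliferating control Ddb1 was followed by Setd8, Cul4a, Suv420h2, Dtl, Cul4b, Skp2, Suv420h1 and Phf8. Ddb1 exceeded 94.5% of measured genes there, and Phf8 exceeded 22.5%. In the knockdown Setd8 kept rank 2 at 9.28 FPKM, next to Cul4a at 8.61 FPKM, and Suv420h1 stood above Skp2. In the maturing control Suv420h2 stood above Cul4a. With 1 library a group there is no spread between replicates against which neighbours in this order can be told apart.

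The enzymes that add further methyl groups differed in level and in pattern. Suv420h2 (chromosome 7, 4691728 to 4699116) measured 9.60 FPKM in proliferating control cells, 7.74 FPKM in Setd8 knockdown cells and 15.1 FPKM in maturing control cells. It was thus highest in the maturing control, at 158% of the proliferating control, and lower than both controls in the knockdown. In the authors' deposited table the maturation log2 ratio was 0.66, with an interval from -0.28 to 1.59, a p of 0.168 and a q of 0.814, so it was not called. Only 2.41% of measured genes had as high or a higher log2 ratio of FPKM + 1 in that comparison. Its knockdown log2 ratio in the authors' deposited table was -0.31, with an interval from -1.29 to 0.66.

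Suv420h1 (chromosome 19, 3767420 to 3818303) measured 2.45 FPKM in proliferating control cells, 3.05 FPKM in Setd8 knockdown cells and 2.54 FPKM in maturing control cells. It was the one gene of the 9 with a higher value in the knockdown than in the proliferating control, at 125% of it. The authors' deposited table did not call it, and its interval for the log2 ratio, from -1.02 to 1.65, was the widest among the 9 genes. The summed level of both enzymes was 12.1 FPKM in proliferating control, 10.8 FPKM in knockdown and 17.7 FPKM in maturing control cells. Setd8 stood at 2.08 times this sum in the proliferating control, 0.861 times in the knockdown and 1.47 times in the maturing control. The balance of the monomethylating enzyme's RNA to that of the other 2 was thus lowest in the knockdown, which follows from the low value of Setd8, the targeted gene. Between the 2 controls Setd8 had nearly the same value, whereas the sum of the other enzymes was higher in the maturing control, and none of these genes was called in the authors' deposited table. Suv420h2 was 3.92 times Suv420h1 in the proliferating control, 2.53 times in the knockdown and 5.96 times in the maturing control.

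The demethylase gene Phf8 (chromosome X, 147955214 to 148068400) was the lowest and the least variable of the 9. It measured 2.21 FPKM in proliferating control cells, 2.03 FPKM in Setd8 knockdown cells and 2.24 FPKM in maturing control cells. In both the knockdown (91.6%) and the maturing control (101%) it was near its proliferating control level. The intervals of the authors' deposited table were still wide for this low gene, from -1.18 to 0.93 for the knockdown and from -1.02 to 1.05 for maturation, so they reach from 44.0% of the control level to 208%. Setd8 RNA stood at 11.3 times Phf8 in the proliferating control, 4.57 times in the knockdown and 11.6 times in the maturing control. The lower ratio in the knockdown follows from the low value of Setd8, the targeted gene.

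Dtl (chromosome 1, 193361243 to 193399413) is the receptor that brings Setd8 to the Cul4 ligase. It measured 6.70 FPKM in proliferating control cells, 4.90 FPKM in Setd8 knockdown cells and 9.52 FPKM in maturing control cells. The knockdown was lowest and the maturing control highest, the order also seen in Suv420h2. The authors' deposited table gave Dtl -0.45 for the knockdown (interval -1.33 to 0.43) and 0.51 for maturation (interval -0.33 to 1.35), neither of them called. In 5.43% of measured genes the maturation ratio of FPKM + 1 was as high or higher.

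Promoters of the 9 genes were searched for short motifs, as a feature that the choice of genes did not use. All 9 matched the RefSeq table of GRCm38.p6 promoters, with 13 promoters of 300 bases in all, each from 250 bases before a start to 50 after. All motifs were searched on both strands, and the E2F-type motif as TTTCCCGC, TTTGGCGC, TTTCGCGC and TTTGCCGC. It was present in promoters of 2 of the 9 genes, Suv420h2 and Dtl, against 2.605% of all 27025 genes of the table. Counted by promoter it was in 2 of 13, against 2.26% of 32851. The motifs were chosen with the expression values known, and neither gene was called in maturation, so the match is no evidence on their levels. The upstream parts are shown because they hold this least common of the 3 motifs, 5′ to 3′ on the strand of the gene, with the E2F-type match in capitals. The Suv420h2 sequence is chr7:4739877-4740126 on the plus strand and the Dtl sequence is chr1:191575545-191575794 on the minus strand of GRCm38.p6, not of mm9.
Suv420h2: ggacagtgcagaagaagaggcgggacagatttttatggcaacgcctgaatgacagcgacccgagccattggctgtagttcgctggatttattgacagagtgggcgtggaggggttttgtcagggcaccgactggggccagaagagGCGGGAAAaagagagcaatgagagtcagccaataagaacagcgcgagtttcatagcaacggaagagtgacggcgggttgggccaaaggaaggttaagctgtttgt
Dtl: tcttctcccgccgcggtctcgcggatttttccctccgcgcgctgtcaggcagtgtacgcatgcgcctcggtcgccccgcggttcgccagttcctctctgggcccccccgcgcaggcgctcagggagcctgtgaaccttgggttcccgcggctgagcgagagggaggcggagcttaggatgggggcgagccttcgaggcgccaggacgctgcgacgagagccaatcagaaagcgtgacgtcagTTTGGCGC
The match begins 105 bases before the start in Suv420h2, where it is read on the opposite strand, and 8 bases before it in Dtl. The CCAAT motif was present in promoters of 6 of the 9 genes, Setd8, Suv420h2, Phf8, Dtl, Cul4b and Skp2, against 41.1% of all genes of the table. In the first Setd8 promoter it occurred 4 times. The GATA motif, searched as AGATAA and TGATAA, was present in 1 of the 9, Cul4b, against 21.0% of all genes. No searched motifs overlapped in the sequences shown. A match describes these letters, and binding of a factor was not measured.

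The adaptor gene Ddb1 (chromosome 19, 10680114 to 10704311) was the most abundant of the 9. It measured 48.2 FPKM in proliferating control cells, 39.9 FPKM in Setd8 knockdown cells and 57.5 FPKM in maturing control cells. It had the narrowest intervals, from -1.02 to 0.47 for the knockdown and from -0.48 to 0.99 for maturation in the authors' deposited table. Ddb1 stood at 7.20 times Dtl in the proliferating control, 8.13 times in the knockdown and 6.03 times in the maturing control, so the RNA of the adaptor, which serves many receptors, exceeded that of this receptor in each library.

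The cullin scaffolds Cul4a and Cul4b are close relatives that occupy the same place in the ligase. Cul4a (chromosome 8, 13105720 to 13147939) measured 11.2 FPKM in proliferating control cells, 8.61 FPKM in Setd8 knockdown cells and 14.5 FPKM in maturing control cells. Cul4b (chromosome X, 35884797 to 35929373) was at 6.41, 4.83 and 6.52 FPKM in the same order. In the knockdown both were at a like share of the proliferating control, 76.6% for Cul4a and 75.4% for Cul4b. In maturation Cul4a was at 129% of the proliferating control and Cul4b at 102%. The ratio of Cul4a to Cul4b was 1.75 in the proliferating control, 1.78 in the knockdown and 2.23 in the maturing control. The authors' deposited table called neither gene in these comparisons, and the 4 intervals included 0.

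Skp2 (chromosome 15, 9041741 to 9070207) is the F-box protein of the other ligase. It measured 3.78 FPKM in proliferating control cells, 2.60 FPKM in Setd8 knockdown cells and 3.05 FPKM in maturing control cells. It was the one gene of the 9 with a lower value in the maturing than in the proliferating control, at 80.8% of it. In the authors' deposited table the log2 ratios were -0.54 for the knockdown (interval -1.57 to 0.49) and -0.31 for maturation (interval -1.37 to 0.75), with no call. The ratio of Dtl to Skp2 was 1.77 in the proliferating control, 1.89 in the knockdown and 3.12 in the maturing control.

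**Figure D2:**
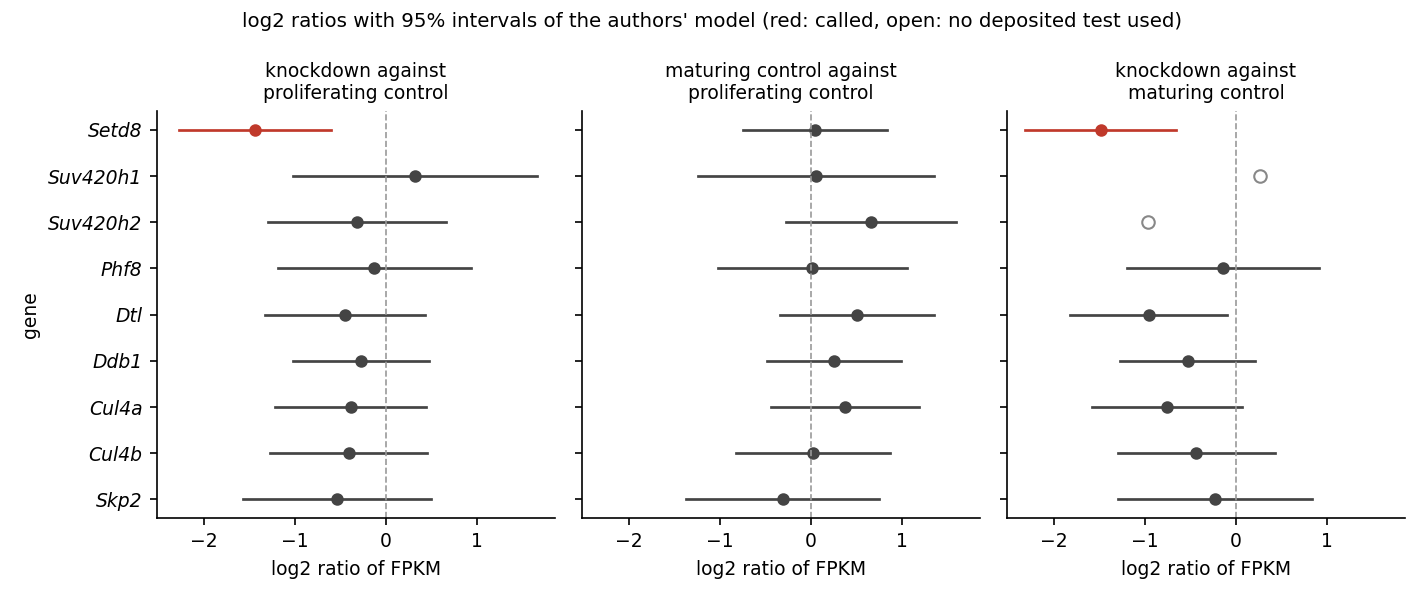
Deposited log2 ratios of FPKM for the 9 genes in 3 comparisons, with bars for 95% intervals from the standard error of the authors' model. Red marks Setd8 where it was called (-1.43 and -1.48), and dark points were not called. Open points are ratios of FPKM for Suv420h1 and Suv420h2, for which the rows used here hold no test in the last comparison.

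Over the 9 genes, the knockdown library had a lower value than the proliferating control for 8, Suv420h1 being the exception. The median log2 ratio of FPKM + 1 was -0.35, and -0.31 over the 8 genes without Setd8. Over all measured genes 55.6% had a lower value and the median was -0.05. Among genes at 5 FPKM or more in every library these were 61.6% and -0.09. Of the 8 genes beside Setd8, 0 were called and 0 had an unadjusted p of at most 0.05 in the authors' deposited table. Their values in the knockdown ranged from 68.8% of the control for Skp2 to 125% for Suv420h1. The intervals of the 8 reach down to 33.7% of the control, for Skp2, and up to 315%, for Suv420h1. All 8 intervals included 0.

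In maturation 8 of the 9 had a higher value than the proliferating control, Skp2 being the exception, against 52.6% of measured genes. Among genes at 5 FPKM or more in every library the share was 47.7%. The authors' deposited table called 0 of the 9, against 1.75% of 11298 tested genes, and 0 had an unadjusted p of at most 0.05. Of genes at 5 FPKM or more in every library, it called 7 higher and 21 lower of 4300 tested. The median log2 ratio of FPKM + 1 was 0.05, which is the value of Setd8 itself, and 0.14 over the 8 genes without Setd8, beside 0.01 over all measured genes. By size, Suv420h2, Dtl, Cul4a and Ddb1 were at 119% to 158% of the proliferating control, whereas Setd8, Suv420h1, Phf8 and Cul4b were at 101% to 104%.

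The knockdown library was also compared with the maturing control in the authors' deposited table, a pair that differs in both the shRNA and the medium and shares a library with each comparison above. The rows used here for this pair cover 19067 of the 23234 genes. They hold 7 of the 9 genes and lack Suv420h1 and Suv420h2, so shares of tested genes for this pair refer to part of the genes. Of the 9 genes and the listed ones, all that sort alphabetically from Slc4a1 on lack a row, and those before it have one. The rows for this pair thus appear to stop partway through the alphabet. A missing row does not mean that the authors left the gene untested. Setd8 was called lower again, at a log2 ratio of -1.48 with an interval from -2.31 to -0.65 and a q of 0.00837, in the authors' deposited table. It was 1 of 7, against 11.6% of 9241 genes tested and 4.38% for calls of lower genes. Of genes at 5 FPKM or more in every library, 57 of 3412 tested were called lower and 61 higher. Dtl, at 51.5% of the maturing control, had a log2 ratio of -0.96 in the authors' deposited table, with a p of 0.0297 and a q of 0.265, so it did not pass. Suv420h2, from its FPKM alone, was at 51.1% of the maturing control. Cul4a was at 59.2%, Ddb1 at 69.4%, Cul4b at 74.1%, Skp2 at 85.2% and Phf8 at 90.7% of that level, and Suv420h1 at 120%. Thus 8 of the 9 had a lower value in the knockdown, against 57.0% of measured genes and 59.0% of genes at 5 FPKM or more in every library.

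**Figure D3:**
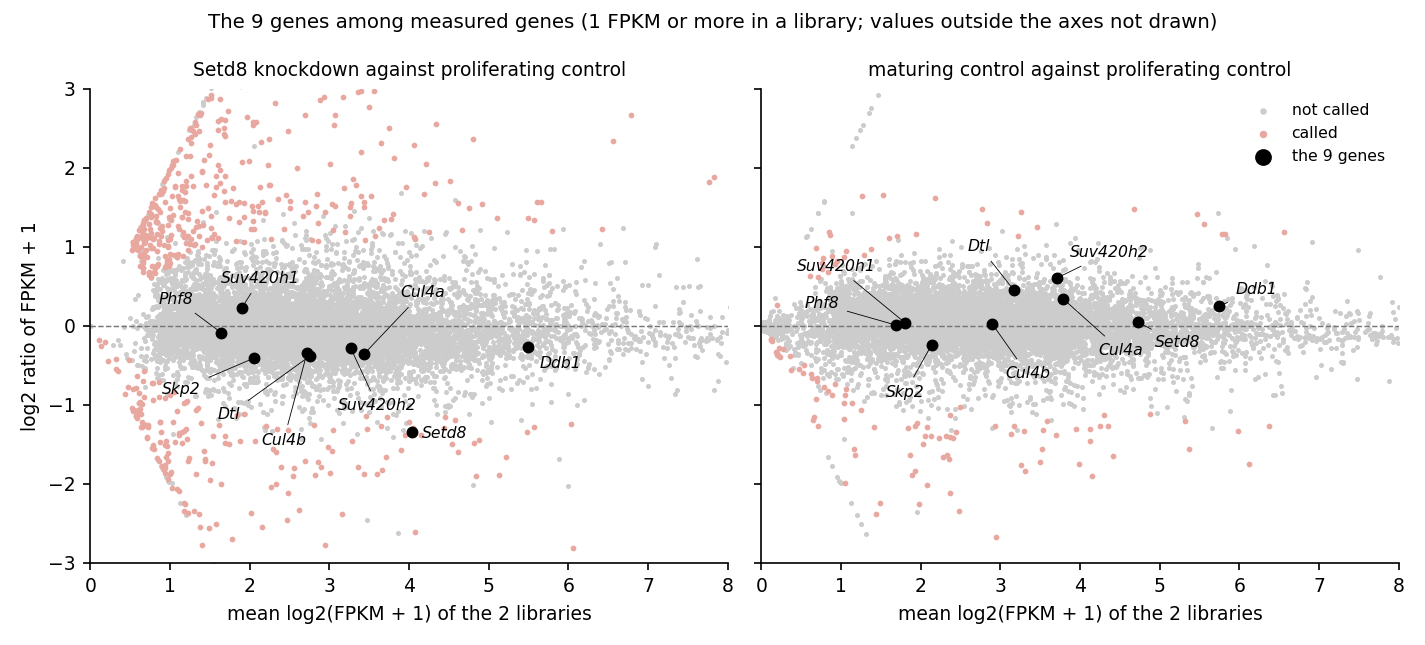
Log2 ratio of FPKM + 1 against the mean level for measured genes in the knockdown and maturation comparisons, with the 9 genes in black and genes called by the authors in pink. Setd8 lies among the called genes on the left (-1.34), and the other points lie within the grey cloud in both panels.

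Genes of the same pathway outside the 9 were described from 9 lists with 59 entries, of which 54 were measured. The authors' deposited table called 0 of 55 tested in the knockdown comparison, against 9.05% of all tested genes, and 0 of 55 in maturation, against 1.75%. These shares include low genes. Among measured genes with a test it called 369 higher and 204 lower of 9498 in the knockdown, and 35 and 90 of 9414 in maturation. Among genes at 5 FPKM or more in every library these counts were 30 and 33 of 4303, and 7 and 21 of 4300. At an unadjusted p of at most 0.05 in that table were 1 and 0 of the 55, beside 977 of 9498 and 344 of 9414 measured genes with a test. Between the knockdown and the maturing control the authors' deposited table called 0 of 50, against 11.6%, with 1 at that p, beside 1064 of 7420 measured genes with a test. This was the origin recognition gene Orc1, named after its values were seen, at 1.66 and 3.44 FPKM with a p of 0.0493 and a q of 0.381 in the authors' deposited table. Of the 54, 32 had a lower value in the knockdown, beside 55.6% of all measured genes, and their median log2 ratio of FPKM + 1 was -0.04.

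Proteins that bind methylated H4K20 include the MBT-domain protein L3mbtl2, the Tudor-domain protein Phf20 and the condensin II subunit Ncapd3. L3mbtl2 was at 7.36, 6.86 and 7.57 FPKM in the proliferating control, knockdown and maturing control. Phf20 was at 4.99, 5.26 and 4.17 FPKM, and Ncapd3 at 4.41, 3.42 and 5.19 FPKM. Of the 9 listed readers 7 were measured, 5 of them with a lower value in the knockdown. L3mbtl1 was near 0 in all libraries, and L3mbtl3 was listed at 0 in the knockdown from 0.0734 FPKM in the proliferating control. Among other enzymes linked to H4K20, Phf2 was at 5.25, 4.70 and 5.06 FPKM, Smyd5 at 4.37, 2.75 and 2.87 FPKM and Rsbn1 at 2.28, 2.38 and 1.86 FPKM. The HP1 proteins, which recruit the Suv420h enzymes to heterochromatin, were at 44.1, 41.8 and 49.1 FPKM for Cbx3, 16.8, 14.4 and 20.8 FPKM for Cbx5, whose test failed in the authors' deposited table, and 12.3, 10.1 and 11.1 FPKM for Cbx1.

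In the rest of the ligase machinery, Pcna measured 123 FPKM in proliferating control cells, 109.6 FPKM in Setd8 knockdown cells and 132 FPKM in maturing control cells. Cks1b, the cofactor of Skp2, was at 36.7, 23.6 and 39.3 FPKM, and Skp1a, which links F-box proteins to the cullin, at 33.2, 32.7 and 34.1 FPKM. The other substrates of these ligases had values on both sides of the control. The cell cycle inhibitor gene Cdkn1a was at 35.8, 19.2 and 29.5 FPKM, with a p of 0.0335 and a q of 0.29 for the knockdown in the authors' deposited table. The licensing factor gene Cdt1 was at 16.0, 11.4 and 20.2 FPKM. Cdkn1b was at 4.80, 7.88 and 5.79 FPKM. Of the 12 other substrate receptors of Ddb1 and Cul4, all measured, 7 had a lower and 5 a higher value in the knockdown, and 10 had a higher value in maturation. Dcaf7 was at 13.9, 11.8 and 16.7 FPKM, Dcaf13 at 12.4, 11.4 and 12.1 FPKM and Dcaf8 at 11.4, 11.2 and 15.3 FPKM. Of the 6 genes of cullin neddylation and exchange, 4 had a lower value in the knockdown and 4 in maturation. Nedd8, which encodes the modifier that activates cullins, was at 64.6, 47.7 and 66.5 FPKM. Ube2m was at 34.8, 34.1 and 30.7 FPKM and Cops5, a subunit of the signalosome that removes it, at 83.7% of the control level in the knockdown and 94.4% in maturation. Cdk1, the kinase that phosphorylates Setd8 in mitosis, was at 7.45, 6.19 and 9.12 FPKM, while the phosphatase genes Cdc14a and Cdc14b were at most 1.08 FPKM.

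The substrate itself was described from 13 entries of histone H4 genes, 11 of them measured. Hist1h4k was at 23.6, 24.2 and 21.0 FPKM, Hist1h4j at 23.1, 23.7 and 20.5 FPKM and Hist1h4b at 22.9, 23.3 and 20.2 FPKM. In the knockdown 8 of the 11 had a higher value, beside 44.3% of all measured genes. Of these 8, Hist1h4n was at 137% of the proliferating control but had too few data for a test. The others were at 102% to 104%. The joint entry of Hist1h4m and Hist1h4n was at 83.5%. In maturation all 11 had a lower value, beside 47.3% of all measured genes, at a median log2 ratio of FPKM + 1 of -0.17. In both comparisons 0 of the 12 tested were called in the authors' deposited table. These copies are near identical, so fragments may be split among them and their levels are not independent.

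Because Setd8, Dtl and Skp2 are genes of the cycling cell, S phase and G2 and M phase genes were read beside them. All 10 S phase genes and all 10 G2 and M phase genes had a lower value in the knockdown, at medians of -0.48 and -0.35 of the log2 ratio of FPKM + 1. In maturation 9 of the 10 S phase genes and all 10 G2 and M phase genes had a higher value, at medians of 0.34 and 0.32. Over all measured genes 55.6% had a lower value in the knockdown and 52.6% a higher value in maturation. Among genes at 5 FPKM or more in every library these shares were 61.6% and 47.7%. The authors' deposited table called 0 of these 20 genes in either comparison, against 9.05% and 1.75% of all tested genes. In the knockdown 1 S phase gene had an unadjusted p of at most 0.05 in that table, beside 977 of 9498 measured genes with a test. Rrm2 was at 50.6, 35.2 and 64.1 FPKM in the proliferating control, knockdown and maturing control, and Mcm2 at 33.6, 24.0 and 42.8 FPKM. Mcm3 was at 31.8, 17.4 and 37.7 FPKM. Ccna2 was at 31.9, 21.7 and 38.0 FPKM, Mki67 at 29.1, 25.1 and 40.6 FPKM and Ccnb1 at 22.5, 17.5 and 28.7 FPKM. Between the knockdown and the maturing control the authors' deposited table called 1 of 9 S phase genes tested, Cdc6, which was lower at 3.76 and 11.5 FPKM with a q of 0.00577, and 0 of 9 G2 and M phase genes, against 11.6% of all tested genes and 4.38% for calls of lower genes. At an unadjusted p of at most 0.05 were 7 of these S phase and 2 of these G2 and M phase genes, all with a lower value in the knockdown. Of measured genes with a test, 1064 of 7420 reached that p in this pair. The order of knockdown lowest and maturing control highest was held by 7 of the 9 genes, all but Suv420h1 and Skp2, and by 27.2% of all measured genes. Of these 7, Setd8, the targeted gene, Phf8 and Cul4b were at only 101% to 103% of the proliferating control in maturation. None of the 7 was called in maturation in the authors' deposited table. The part of the cell cycle genes' shift in the values of the 7 was not tested.

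**Figure D4:**
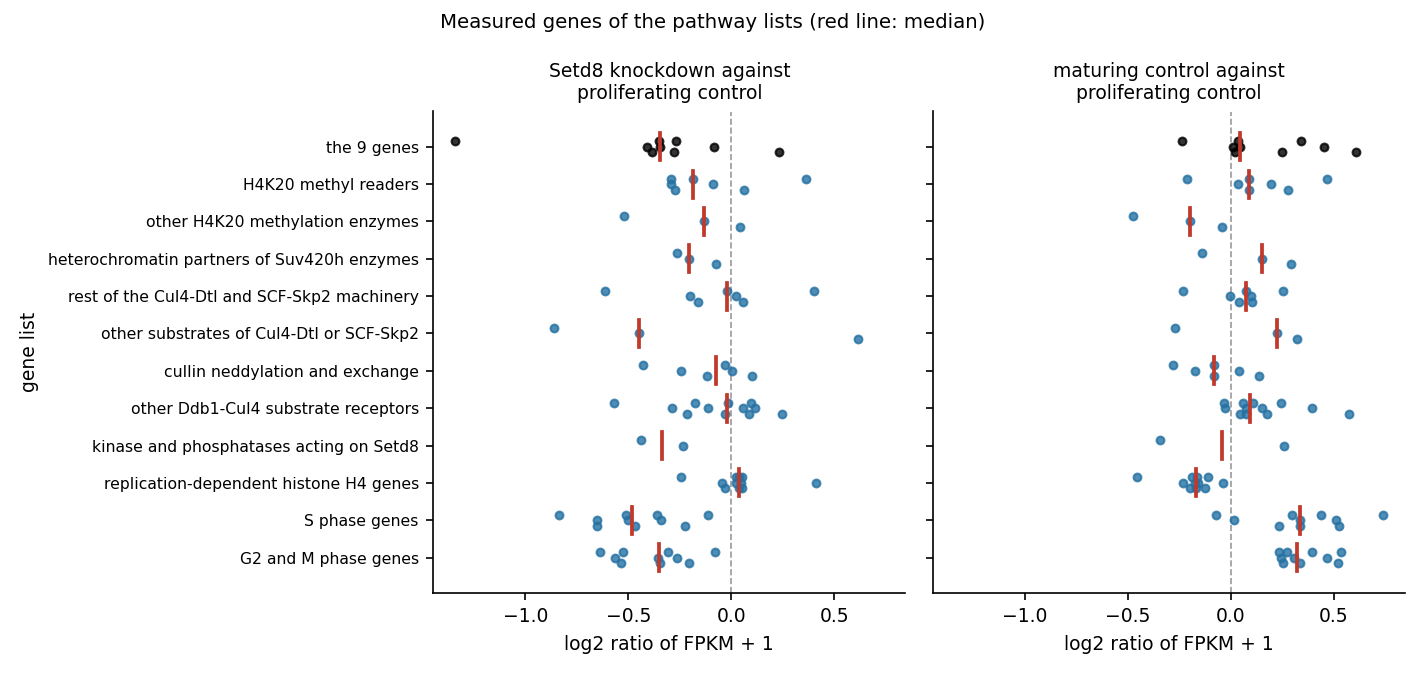
Log2 ratio of FPKM + 1 for measured genes of each pathway list and for the 9 genes, each point 1 gene and each red line the median, in the knockdown and maturation comparisons. The S phase list has medians of -0.48 on the left and 0.34 on the right, while histone H4 genes have 0.04 and -0.17.

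Genes with a pattern most like that of Setd8 were found by the distance between pairs of log2 ratios of FPKM + 1 (knockdown and maturing control, each over the proliferating control) across 3 libraries, among 4564 genes with at least 5 FPKM in the proliferating control. The nearest were Zfp534, A2ld1, Asap1, Myh10 and Hdac7, at distances of 0.11 to 0.14. The zinc finger gene Zfp534 was at 47.5, 16.8 and 48.5 FPKM in the proliferating control, knockdown and maturing control. Asap1, which encodes an Arf GTPase-activating protein, was at 9.80, 3.53 and 10.7 FPKM, and Myh10, a non-muscle myosin heavy chain gene, at 5.11, 1.22 and 5.14 FPKM. A2ld1 was at 6.14, 1.98 and 6.75 FPKM. The histone deacetylase gene Hdac7 was at 9.27, 2.81 and 10.5 FPKM. Of the 5, 4 were called lower in the knockdown in the authors' deposited table, and Hdac7, with a q of 0.669, was not. The 5 were picked by their low knockdown ratio, so these calls are no separate evidence. Of the 9 genes, Suv420h1, Phf8 and Skp2 were below 5 FPKM in the proliferating control and were not compared. Suv420h2, Dtl, Ddb1, Cul4a and Cul4b had knockdown ratios from -0.38 to -0.27 beside -1.34 for Setd8, too far off to be among the 5.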

How the data were processed

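RNA libraries were made from cultured mouse erythroblasts with commercial kits, per the labels' protocols. FastQC 0.10.1, Cufflinks 2.0.2, Cuffdiff and mm9 are named in the submitters' processing notes, and neither aligner nor annotation is given in the sources used here. Deposited was 1 table in the layout of Cuffdiff output, used here with 65535 rows in 3 comparisons. Values per library in the deposited table were read as FPKM. Per the file headers it also holds a log2 ratio, a test statistic (a score of opposite sign), a p-value and a q-value in the authors' deposited form. The deposited q-values matched a Benjamini-Hochberg adjustment over all 32204 tested rows together within a factor of 0.923 to 1.10. A library was matched to a sample by its title, and the knockdown by its target and the number in its title. The name of the knockdown library differs from its sample title, which opens with the title of the control sample. That match is therefore less certain than the others.

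The 9 genes and the lists were chosen with earlier results of these data known. Standard errors were the log2 ratio over the statistic, and intervals took 1.96 of them. They describe the authors' model without replicates. No test was run, because each group had 1 library. The ratio of FPKM + 1 understates changes of low genes. None of the 9 rows overlapped another row of the table. The rule for other names took called list members, the 3 highest per list in the proliferating control, and the 5 genes nearest to Setd8. L3mbtl1, L3mbtl3, Cdc14a and the genes at 0 were named after their values were seen. All 122 list entries matched a row. Promoter motifs were also chosen after the values were known. Scaling and depth steps were tested on simulated data. The depth step was run there with a higher limit for very low genes than the 0.03 FPKM used on the data, so that setting itself was not tested. Alternatives were other pseudocounts, 4 scalings, stricter calls, the mean, and leaving out Setd8. Python 3.11.15, numpy 2.4.6, pandas 2.3.3 and matplotlib 3.10.9 were used.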

Additional observations from a re-analysis of the deposited data

How the results depend on the processing

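Of the counts of genes called, only that of the knockdown against the proliferating control moved: with q under 0.01 it was 0 in place of 1, because the q of Setd8 was 0.0122. Against the maturing control Setd8 was called under that setting too. The Setd8 log2 ratio of FPKM + 1 for the knockdown ranged from -1.42 with a pseudocount of 0.1 to -1.07 with one of 5, including 4 scalings. The median over the 9 genes ranged from -0.38 to -0.21 for the knockdown and from -0.53 to -0.44 against the maturing control. For maturation it went from 0.05 to 0.14 without Setd8 and to 0.17 as the mean. The counts of genes with a lower value, 8 in the knockdown and 1 in maturation, were the same with 4 scalings, and a pseudocount cannot alter them. Centring on abundant genes lowered the share of all measured genes with a lower value in the knockdown from 55.6% to 45.9%. No paired analysis was possible because each group had 1 library and the labels give no replicate numbers. The absolute depth is unknown, and the precision is that of the authors' model.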
